A study of Mus with 3 samples.

Results

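Penk and Areg are 2 of the 32285 mouse genes in the count matrix of a single-cell RNA-seq study of MC38 tumors, and they are described here across 5 cell classes and 3 genotypes. Both were chosen by their ratios of summed UMIs between the genotypes in T cells, seen in earlier results of these data, so their levels and the differences between genotypes are a description and carry no test. In the RefSeq annotation of GRCm38.p6, Penk (ENSMUSG00000045573) lies on chromosome 4 at positions 4133536 to 4138815 and Areg (ENSMUSG00000029378) lies on chromosome 5 at positions 91139599 to 91148432. Penk UMIs, the molecule counts left after PCR copies are collapsed, numbered 3232 and came from 231 of 4931 cells with a single hashtag. Areg UMIs numbered 5853 and came from 588 of those cells.

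Penk encodes preproenkephalin, the precursor from which prohormone convertases such as Pcsk1 and then carboxypeptidases release the enkephalins, short peptides that act on opioid receptors. Areg encodes amphiregulin, a membrane-bound ligand of the EGF receptor that Adam17 sheds from the cell surface and that is known for its part in tissue repair. Both genes are made by subsets of regulatory T cells in tissues, and Areg is also made by innate immune cells.

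The tumors were grown in 3 kinds of mice from MC38, a mouse colon adenocarcinoma line, and were taken on day 16 after injection. WT mice were the controls, for which the study used C57BL/6 and dLck-Cre mice without saying which of them bore this hashtag. RARα-KO mice carried floxed Rara alleles and Cre driven by the distal Lck promoter, which acts in T cells, and RARα-TG mice carried Rara under the CD2 promoter. For each genotype 30000 sorted CD45.2+ CD3+ T cells were mixed with 10000 unsorted tumor cells, labelled with 1 hashtag antibody per genotype and run as 1 pooled library, so each genotype is 1 sample. How many mice stood behind each hashtag is not given in the sources used here. With 1 sample per genotype no test between genotypes was possible, and all intervals below are exact 95% intervals for counting error only, which leave out the spread between mice.

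The 5591 barcodes called as cells held 96.4% of the gene UMIs, with a median of 4812 UMIs per cell, and the single-hashtag cells numbered 1928 for WT, 2106 for RARα-KO and 897 for RARα-TG. Rara, the targeted gene, stood at 87.4 CPM, the UMIs of a gene per 1000000 UMIs of the class, in WT T cells, 80.2 CPM in RARα-KO T cells and 249 CPM in RARα-TG T cells. The RARα-KO transcript that lacks the deleted exon is still counted, so this level does not check the deletion. The WT cells had the least clear hashtags, with a median of 80.8% of a cell's hashtag UMIs on its own hashtag, against 94.7% for RARα-KO and 89.3% for RARα-TG.

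T cells were the clusters in which most barcodes had a T cell receptor clonotype. CD8 T cells were those with a Cd8a UMI and no Cd4 UMI, and CD4 T cells were those with a Cd4 UMI and neither Cd8a nor Cd8b1 UMIs. CD4 T cells with at least 1 Foxp3 UMI are called Foxp3-positive and the others Foxp3-negative. The markers Foxp3, Il2ra, Ikzf2 and Ctla4, summed, stood at 3880 to 4784 CPM in the Foxp3-positive cells and at 730 to 1332 CPM in the Foxp3-negative cells, so the Foxp3-negative class is a gate on counts and can hold regulatory T cells in which no Foxp3 UMI was caught. Macrophages carried 12 of 12 macrophage markers. The cluster that stood for MC38 cells carried 6 of 6 fibroblast markers and 0 of 7 epithelial markers at 0.1 or more UMIs per cell, and because the markers went against the label it is called Col3a1-rich cells here, after a leading gene.

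Penk was high in CD4 T cells and near the detection limit in macrophages and Col3a1-rich cells. Over the 3 genotypes together it stood at 499 CPM (95% interval 467 to 533) in Foxp3-negative CD4 T cells, where 10.1% of 376 cells had a UMI. It stood at 491 CPM (460 to 525) in Foxp3-positive CD4 T cells, where 16.9% of 350 cells had a UMI. CD8 T cells held 26.5 CPM (23.9 to 29.3), with a UMI in 1.96% of 2143 cells.

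Cell types that should lack the gene gave the background for these shares. Penk was seen as 2 UMIs in 239 macrophages (0.837% of cells, 0.102 to 2.99) and as 4 UMIs in 422 Col3a1-rich cells (0.948%, 0.259 to 2.41), at median depths of 6514 and 29282 UMIs per cell. Of the 2 Penk-positive RARα-TG Col3a1-rich cells 1 had a clonotype. The 57 neutrophils, at a median of 1939 UMIs, had none, which allows a share of up to about 5.26%. This limit is 3 divided by the number of cells, an approximation and not an exact interval. In the RNA outside cells, read from the barcodes ranked 45000 to 90000 by UMIs, Penk made up 133 CPM (36 UMIs, 93.4 to 185), so single UMIs of this gene can be free RNA.

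In CD8 T cells Penk was seen in 29 of 845 WT cells, 11 of 1185 RARα-KO cells and 2 of 113 from RARα-TG. The WT share of 3.43% (2.31 to 4.89) was above the share over all macrophages, although the intervals overlap and the neutrophils allow up to about 5.26%. The RARα-KO share of 0.928% (0.464 to 1.66) lay within the background seen in macrophages and Col3a1-rich cells, so the share alone is not read as expression. The positive macrophages and Col3a1-rich cells held 1 Penk UMI each, whereas the highest RARα-KO CD8 cells held 12, 8 and 7. The RARα-TG share of 1.77% (0.215 to 6.25) rested on 1 cell with 7 UMIs and another with 1. Median depths of the CD8 cells were 5664, 5572 and 4680 UMIs in WT, RARα-KO and RARα-TG.

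The summed CD8 level of Penk followed the same order in WT and RARα-KO. It was 59.5 CPM (334 UMIs, 53.2 to 66.2) in WT cells. It was 4.67 CPM (38 UMIs, 3.30 to 6.41) in RARα-KO cells, 12.7-fold lower, a log2 ratio of -3.67 (-4.20 to -3.18). Among all 6592 genes measured in this comparison 1.33% were 2-fold or more lower, and since Penk was chosen for this contrast nothing is read from that share. In WT CD8 cells 10 cells with 10 or more UMIs held 85.9% of the Penk UMIs, the highest with 55, 52 and 37, and without the highest cell the WT level was 49.8 CPM. In RARα-KO CD8 cells 7 of the 11 cells held a single UMI and the highest held 12.

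The RARα-TG level in CD8 T cells was 13.3 CPM (8 UMIs, 5.73 to 26.2), a log2 ratio of -2.16 (-3.39 to -1.17) over WT, where 5.8% of 6602 genes were 2-fold or more lower. One cell held 87.5% of these UMIs, and without it the level was 1.70 CPM. The direction of this ratio rests on 8 UMIs and turned to 1.89 when only cells with 90% or more of their hashtag UMIs on 1 hashtag were kept, a rule that left 17 WT CD8 cells.

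**Figure D1:**
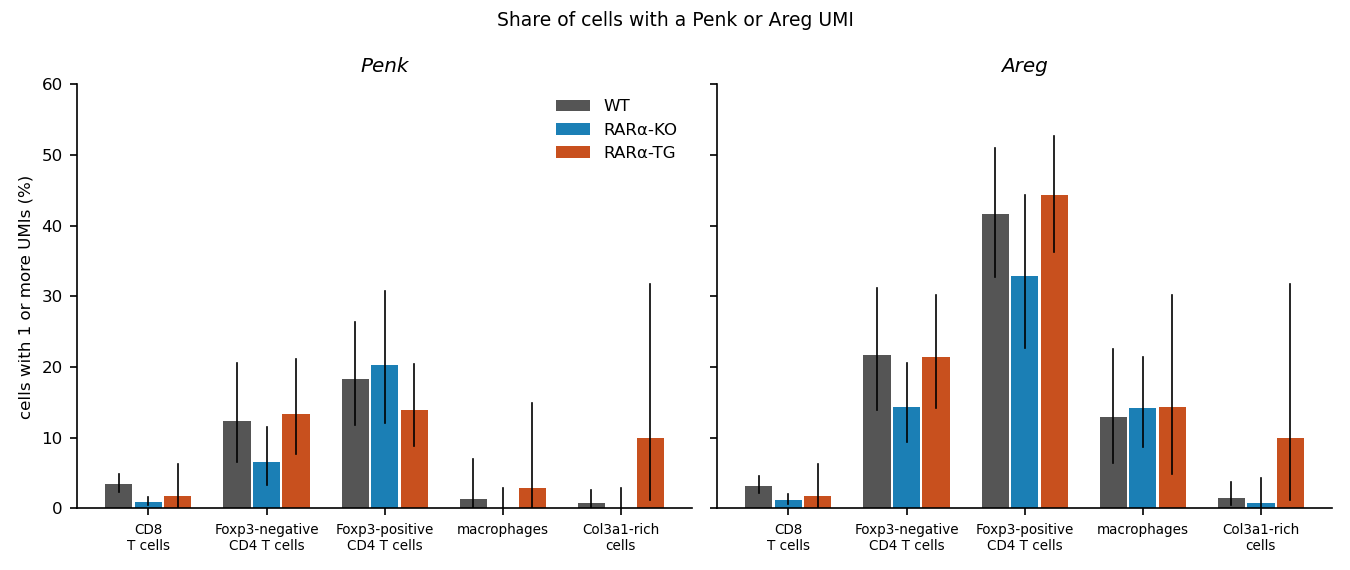
Share of cells with at least 1 UMI of Penk (left) and Areg (right), in percent of cells, for the 5 cell classes and the 3 genotypes. Bars give the share and error bars the exact binomial 95% interval, which covers counting error only. Foxp3-positive CD4 T cells stand highest for both genes, and macrophages hold Areg in 13.0% to 14.3% of cells while Penk was seen there in 1, 0 and 1 cells. The RARα-TG bar of Col3a1-rich cells is 2 of 20 cells for each gene.

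Most of the Penk-positive WT CD8 cells sat in 1 cluster, which was led by Gzmf, Gzmd, Gzmg and Gzme, granzymes of killer cells. There 20 of 345 WT cells (5.80%, 3.58 to 8.81) had Penk at 92.3 CPM, against 9 of 500 WT cells (1.80%, 0.826 to 3.39) at 27.2 CPM in all other CD8 clusters. In RARα-KO the same cluster had 3 of 110 cells (2.73%, 0.566 to 7.76) at 13.5 CPM and the other clusters 8 of 1075 cells (0.744%, 0.322 to 1.46) at 3.38 CPM. By level WT cells were thus above RARα-KO cells within that cluster and outside it, but in both places the intervals of the shares overlap. Outside the cluster 1 WT cell held 55 of the 77 Penk UMIs. Without the cluster the log2 ratio was -3.01 in place of -3.67. The cluster held only 2 RARα-TG CD8 cells, so no RARα-TG level is given for it. The granzymes that led the cluster went both ways in RARα-KO CD8 cells. Gzmf (2215 CPM for WT, 891 CPM in RARα-KO) and Gzme (443 against 121 CPM) were lower. Gzmg was 2-fold or more higher, and Gzmd was not among the genes 2-fold apart. The part of these granzymes in the Penk difference was not tested.

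In Foxp3-negative CD4 T cells Penk was highest in RARα-TG and lowest in RARα-KO. A UMI was seen in 12 of 97 WT cells (12.4%, 6.56 to 20.6), 11 of 167 RARα-KO cells (6.59%, 3.33 to 11.5) and 15 of 112 from RARα-TG (13.4%, 7.69 to 21.1). The shares of WT and RARα-TG cells were close, and the intervals of all 3 genotypes overlap. The summed levels differed more, at 506 CPM (223 UMIs, 441 to 577) for WT, 92.4 CPM (81 UMIs, 73.4 to 115) for RARα-KO and 1243 CPM (591 UMIs, 1145 to 1348) for RARα-TG. The difference between shares and levels lay in a few cells with very many UMIs. The summed regulatory T cell markers of this class stood at 1292 CPM for WT, 730 CPM for RARα-KO and 1332 CPM for RARα-TG, in the same order as Penk. A wider list of 18 tissue regulatory T cell genes had 16 measured in RARα-KO against WT here. Of these 1 was 2-fold lower and 0 higher, against 4.95% and 3.25% of all genes. The list median was a log2 ratio of -0.02 against -0.06 over all genes. The part of these genes in the Penk difference was not tested.

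One WT cell held 149 Penk UMIs, 66.8% of the WT total, and without it the WT level was 172 CPM. In RARα-TG the highest cells held 179, 105, 90 and 80 UMIs, and the 10 cells with 10 or more UMIs held 97.8% of the total. Without its highest cell the RARα-TG level was 883 CPM, and the highest RARα-KO cell held 18 UMIs, with 72.5 CPM left without it. A positive cell held a median of 3 UMIs for WT, 4 for RARα-KO and 14 for RARα-TG.

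Against WT, Penk in Foxp3-negative CD4 cells was 5.47-fold lower in RARα-KO, a log2 ratio of -2.45 (-2.84 to -2.08), in a comparison where 4.95% of 6160 genes were 2-fold or more lower and 3.25% higher. It was 2.46-fold higher in RARα-TG, a log2 ratio of 1.30 (1.07 to 1.53), in a comparison where 4.36% of 5984 genes were 2-fold or more higher. Leaving out the highest cell of each genotype, an alternative added after the data were seen, gave -1.25 and 2.36, so the highest cells, above all the single WT cell, set the size of both ratios. The directions were the same without them.

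The cluster led by Tnfsf8, Tnfsf11 and Il13, genes of activated helper cells, held 555 of the 591 Penk UMIs of RARα-TG Foxp3-negative cells, 64 of the 81 of RARα-KO and 64 of the 223 of WT, where 149 came from 1 cell of the Pcsk1 and Klrg1 cluster. In that cluster 6 of 46 WT cells (13.0%) had Penk, 9 of 113 RARα-KO cells (7.96%) and 11 of 36 from RARα-TG (30.6%, 16.3 to 48.1). Its level there was 250 CPM for WT, 97.7 CPM for RARα-KO and 2638 CPM for RARα-TG. By contrast Penk was nearly absent from the S1pr1 and Tcf7 cluster of resting-type cells, with 0, 1 and 0 UMIs in 152 WT, 221 RARα-KO and 166 RARα-TG T cells.

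**Figure D2:**
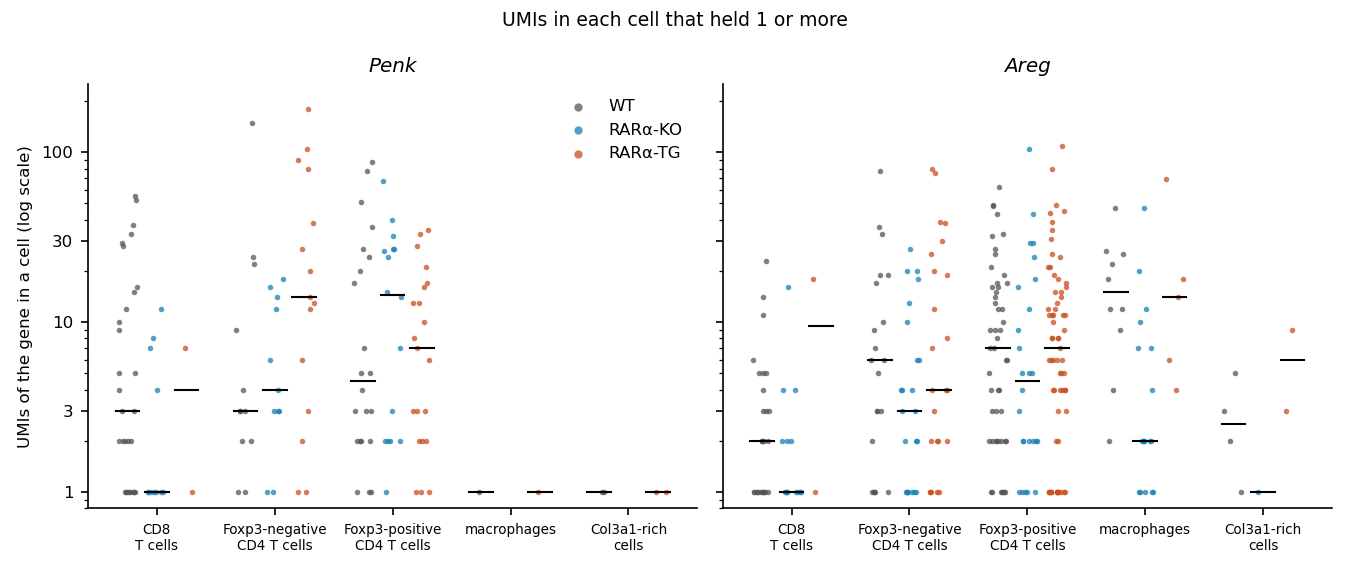
UMIs of Penk and Areg in every cell with at least 1 UMI, on a log axis, by cell class and genotype. Each point is 1 cell and the bar is the median of the cells shown. In the T cell classes the counts run from 1 UMI to well above 10, in proportions that differ between classes. Areg in WT Foxp3-positive cells had 7 cells with 1 UMI and 20 with 10 or more, whereas Penk in RARα-KO CD8 cells had 7 and 1. The highest Penk cell (179 UMIs) is a RARα-TG Foxp3-negative CD4 T cell.

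In Foxp3-positive CD4 T cells Penk stood close in WT and RARα-KO and lower in RARα-TG. A UMI was seen in 22 of 120 WT cells (18.3%, 11.9 to 26.4), 16 of 79 RARα-KO cells (20.3%, 12 to 30.8) and 21 of 151 from RARα-TG (13.9%, 8.82 to 20.5), with overlapping intervals. Levels were 634 CPM (380 UMIs, 572 to 701), 598 CPM (292 UMIs, 531 to 671) and 305 CPM (225 UMIs, 267 to 348). No single cell decided them, since the highest cells held 87, 68 and 35 UMIs and the levels without them were 494, 466 and 259 CPM.

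The log2 ratio of RARα-KO over WT in Foxp3-positive cells was -0.08 (-0.31 to 0.14), an interval that holds 0, in a comparison where 4.43% of 6572 genes were 2-fold or more lower and 4.73% higher. For RARα-TG it was -1.05 (-1.30 to -0.81), 2.08-fold lower, in a comparison where 4.04% of 6211 genes were 2-fold or more lower. The RARα-TG cells of this class were spread over other clusters than the WT cells. Of the RARα-TG cells 102 sat in the cluster led by Rln3, Laptm4b, Pcsk1 and Klrg1 (276 of its cells over all T cells were RARα-TG, 15 WT and 5 RARα-KO) and 41 in the cluster led by Foxp3 and Lrrc32, which held 109 of the WT and 73 of the RARα-KO cells. Within the Foxp3 and Lrrc32 cluster Penk stood at 556 CPM for WT, 527 CPM for RARα-KO and 303.4 CPM for RARα-TG, and in the Pcsk1 and Klrg1 cluster the RARα-TG cells held 348 CPM. When a Foxp3-positive cell had to have at least 2 Foxp3 UMIs the ratios were 0.92 for RARα-KO and -0.21 for RARα-TG, so neither stood at its value under the looser gate.

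In rank order, the Penk level ran from RARα-TG Foxp3-negative cells through WT Foxp3-positive, RARα-KO Foxp3-positive, WT Foxp3-negative, RARα-TG Foxp3-positive and RARα-KO Foxp3-negative cells to WT, RARα-TG and RARα-KO CD8 cells. The intervals of WT and RARα-KO Foxp3-positive cells overlap, those of RARα-KO Foxp3-positive and WT Foxp3-negative cells overlap, and those of RARα-TG and RARα-KO CD8 cells overlap. The place of WT Foxp3-negative above RARα-TG Foxp3-positive cells rests on 1 cell, since without the highest cells their levels were 172 and 259 CPM. The other neighbours in this order are apart by counting error, and how far they would be apart between mice is unknown.

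Areg was highest in Foxp3-positive CD4 T cells and, unlike Penk, was present in macrophages. Over the 3 genotypes it stood at 998 CPM (953 to 1045) in Foxp3-positive CD4 T cells, with a UMI in 40.9% of 350 cells. Foxp3-negative CD4 T cells held 442 CPM (412 to 474) and 18.4% of 376 cells. Macrophages held 237 CPM (214 to 261) and 13.8% of 239 cells. CD8 T cells held 11.1 CPM (9.48 to 13.0) and 2.01% of 2143 cells.

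The background for Areg was 1.66% of 422 Col3a1-rich cells (0.669 to 3.39), 0 of 57 neutrophils, which allows up to about 5.26%, and 159 CPM (43 UMIs, 115 to 214) in the RNA outside cells. Of the 24 Areg UMIs in Col3a1-rich cells 12 came from 2 of the 20 RARα-TG cells, both of which also had a clonotype and Foxp3 and Cd4 UMIs. Among the 4 Areg-positive WT cells of that class 1 had a clonotype, 1 had Foxp3 and 1 had Cd4. In the RARα-TG cells of that class T cell genes were high for Icos (113 CPM, against 3.93 CPM in WT) and Tnfrsf9 (152 against 9.14 CPM), and pairs of cells of the same genotype carry only 1 hashtag and were not removed.

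In Foxp3-positive CD4 T cells Areg was seen in 50 of 120 WT cells (41.7%, 32.7 to 51.0), 26 of 79 RARα-KO cells (32.9%, 22.8 to 44.4) and 67 of 151 from RARα-TG (44.4%, 36.3 to 52.7). Levels were 1019 CPM (611 UMIs, 940 to 1103) for WT, 678 CPM (331 UMIs, 607 to 755) for RARα-KO and 1193 CPM (880 UMIs, 1115 to 1274) for RARα-TG. Areg was thus lowest in RARα-KO cells, although the shares of cells overlap. One RARα-KO cell held 105 UMIs, 31.7% of that total, and without it the level was 469 CPM. The highest WT cell held 62 UMIs and the highest RARα-TG cell 108, and the levels without them were 939 and 1053 CPM.

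The log2 ratio of Areg over WT in Foxp3-positive cells was -0.59 (-0.79 to -0.39) for RARα-KO and 0.23 (0.08 to 0.38) for RARα-TG, a 1.5-fold lower and a 1.17-fold higher level. Both are below the 2-fold size that 4.43% of genes reached downward in RARα-KO and 4.48% upward in RARα-TG. Foxp3-positive cells of the Foxp3 and Lrrc32 cluster held Areg at 1051 CPM for WT, 798 CPM for RARα-KO and 613 CPM for RARα-TG. The shares of these cells with a UMI were 40.4%, 34.2% and 36.6%. In the Pcsk1 and Klrg1 cluster, of which Areg is itself a leading gene, the RARα-TG cells held 1390 CPM with a UMI in 48 of 102 cells. Among the Foxp3-positive cells of the Foxp3 and Lrrc32 cluster RARα-TG thus had the lowest Areg level, whereas in the class as a whole it had the highest. RARα-KO was below WT in both. Over all cells of that cluster, gated or not, the levels were 1044, 774 and 855 CPM for WT, RARα-KO and RARα-TG, with RARα-KO lowest.

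In Foxp3-negative CD4 T cells Areg was seen in 21 of 97 WT cells (21.6%, 13.9 to 31.2), 24 of 167 RARα-KO cells (14.4%, 9.43 to 20.6) and 24 of 112 from RARα-TG (21.4%, 14.2 to 30.2). Levels were 590 CPM (260 UMIs, 520 to 666), 173 CPM (152 UMIs, 147 to 203) and 799 CPM (380 UMIs, 721 to 884), with the highest cells at 77, 27 and 79 UMIs. Areg was lower in RARα-KO cells both by share and by level, although the intervals of the shares overlap. The cells of the genotypes sat in different clusters. In the Foxp3 and Lrrc32 cluster, which held 21 of the 97 WT but 11 of the 167 RARα-KO cells, Areg was seen in 9 of the 21 at 1518 CPM and in 7 of the 11 at 1555 CPM, so RARα-KO was not lower there. In the Tnfsf8 and Tnfsf11 cluster, which held 46 WT and 113 RARα-KO cells, the shares were 15.2% and 14.2% and the levels 312 and 111 CPM. The regulatory T cell markers of the class, at 1292 CPM for WT, 730 CPM for RARα-KO and 1332 CPM for RARα-TG, had the same order as Areg. The wider list of tissue regulatory T cell genes had a median log2 ratio of -0.02 in RARα-KO, against -0.06 over all genes. The part of these genes in the Areg difference was not tested. Over the whole class RARα-KO was 3.40-fold lower than WT, a log2 ratio of -1.76 (-2.06 to -1.47), and this ratio stayed negative under every alternative tried, from -0.87 when each clonotype had the same weight to -3.42 when 90% of hashtag UMIs had to be on 1 hashtag. RARα-TG over WT was 0.44 (0.21 to 0.67), and it turned negative under 3 alternatives.

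In CD8 T cells Areg was rare in every genotype. A UMI was seen in 27 of 845 WT cells (3.20%, 2.12 to 4.62), 14 of 1185 RARα-KO cells (1.18%) and 2 of 113 from RARα-TG. The RARα-KO share is no higher than that of the Col3a1-rich cells (1.66%), a background that came in part from cells with T cell transcripts. Levels were 18.3 CPM (103 UMIs, 15 to 22.2) for WT, 4.67 CPM (38 UMIs, 3.30 to 6.41) for RARα-KO and 31.5 CPM (19 UMIs, 19.0 to 49.2) for RARα-TG. The RARα-TG value came from 1 cell with 18 of the 19 UMIs, and without it the level was 1.68 CPM. The log2 ratio over WT was -1.97 (-2.55 to -1.42) for RARα-KO and 0.78 (-0.01 to 1.5) for RARα-TG, where 4.63% of genes were 2-fold or more higher. In RARα-KO 1 of the 14 cells held 16 of the 38 UMIs, and the level without it was 2.70 CPM.

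In macrophages the share of cells with Areg was close in the 3 genotypes, with 10 of 77 WT cells (13.0%), 18 of 127 RARα-KO cells (14.2%) and 5 of 35 from RARα-TG (14.3%). The level was 307 CPM (177 UMIs, 264 to 356) for WT, 135 CPM (124 UMIs, 112 to 161) for RARα-KO and 451 CPM (111 UMIs, 371 to 543) for RARα-TG. RARα-KO was thus lower by level and not by share, with a log2 ratio of -1.19 (-1.53 to -0.85) in a comparison where 6.21% of 6470 genes were 2-fold or more lower. For RARα-TG the ratio was 0.55 (0.20 to 0.90), but 1 of its 5 positive cells held 69 UMIs, and the level without that cell was 182 CPM, below the 229 CPM of WT without its own highest cell.

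None of the 33 Areg-positive macrophages had a clonotype or a Cd3e or Trbc2 UMI, and 1 had a Cd8a UMI. The positive WT macrophages were deeper than the others, at a median of 11219 against 6196 UMIs per cell. T cell markers summed over the macrophages stood at 146 CPM for WT, 567 CPM for RARα-KO and 106 CPM for RARα-TG, and their part in the Areg difference was not tested.

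By level, Areg ran from RARα-TG and WT Foxp3-positive cells through RARα-TG Foxp3-negative, RARα-KO Foxp3-positive and WT Foxp3-negative cells to the macrophages of RARα-TG and WT, then to RARα-KO Foxp3-negative cells, RARα-KO macrophages and the CD8 cells of RARα-TG, WT and RARα-KO. The intervals of neighbours overlap between RARα-TG Foxp3-negative and RARα-KO Foxp3-positive cells, between these and WT Foxp3-negative cells, and between those and RARα-TG macrophages. They also overlap between RARα-KO Foxp3-negative cells and RARα-KO macrophages and between RARα-TG and WT CD8 cells. The places of RARα-TG macrophages above WT macrophages and of RARα-TG CD8 cells above the other CD8 cells each rest on 1 cell. Without the highest cells RARα-TG and WT macrophages stood at 182 and 229 CPM. The CD8 cells of RARα-TG, WT and RARα-KO then stood at 1.68, 14.3 and 2.70 CPM.

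**Figure D3:**
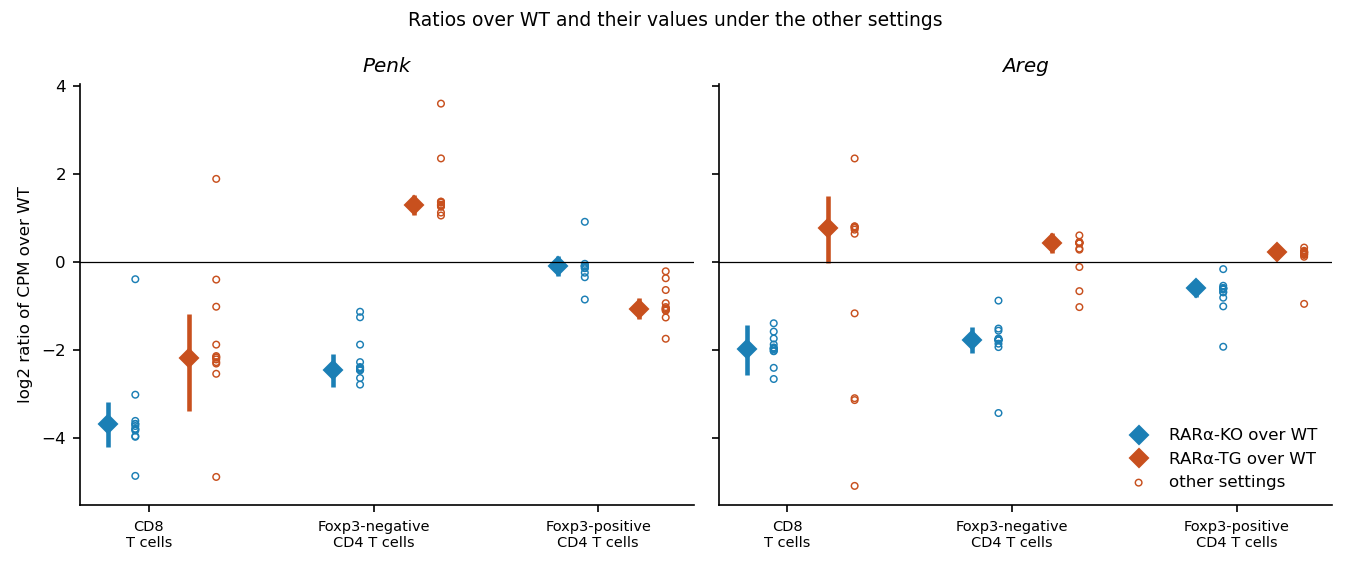
Log2 ratio of the summed level (CPM) of each mutant genotype over WT for Penk and Areg in the 3 T cell classes. Diamonds give the value with its 95% interval for counting error, and open circles give the value under each other setting. RARα-KO lies below 0 for both genes in CD8 and Foxp3-negative CD4 T cells, and the RARα-TG values of CD8 cells scatter on both sides of 0.

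Every cell was also thinned to 1000 UMIs, so that shares are compared at equal depth. Penk was then seen in 8.33%, 3.59% and 11.6% of WT, RARα-KO and RARα-TG Foxp3-negative CD4 cells and in 10.1%, 13.9% and 9.27% of Foxp3-positive cells. In CD8 cells it was seen in 1.66%, 0.338% and 0.901%. Areg was seen in 13.5%, 4.79% and 13.4% of Foxp3-negative cells and in 30.3%, 22.8% and 29.1% of Foxp3-positive cells, and in 9.59%, 4.27% and 11.4% of macrophages. At equal depth RARα-KO had the lowest Areg share in each of these classes, but the intervals of RARα-KO and WT overlap, at 2.09 to 9.22 and 7.41 to 22.0 in Foxp3-negative cells, 14.1 to 33.6 and 22.2 to 39.3 in Foxp3-positive cells and 1.40 to 9.69 and 3.94 to 18.8 in macrophages. Before thinning the macrophage shares were close, and positive RARα-KO macrophages held a median of 2 UMIs against 15 for WT. From 0 to 2 T cells per group were too shallow and left out, and 4 WT and 10 RARα-KO macrophages.

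Penk and Areg were in part found in the same cells. Among Foxp3-positive CD4 cells of all genotypes, 27 of 59 Penk-positive cells (45.8%, 32.7 to 59.3) had Areg, and so had 116 of 291 Penk-negative cells (39.9%, 34.2 to 45.7). Among Foxp3-negative cells 11 of 38 Penk-positive cells (28.9%, 15.4 to 45.9) had Areg, and so had 58 of 338 Penk-negative cells (17.2%). In both CD4 classes the intervals overlap, and Penk-positive cells were deeper, with medians of 4929 against 4110 UMIs in Foxp3-positive and 5412 against 3978 UMIs in Foxp3-negative cells. In CD8 cells 4 of 42 Penk-positive cells (9.52%, 2.66 to 22.6) had Areg against 39 of 2101 Penk-negative cells (1.86%, 1.32 to 2.53). The Penk-positive cells were deeper, at medians of 7308 against 5526 UMIs. All 4 were WT cells. Within WT the shares were 13.8% (3.89 to 31.7) and 2.82% (1.79 to 4.20), with overlapping intervals.

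**Figure D4:**
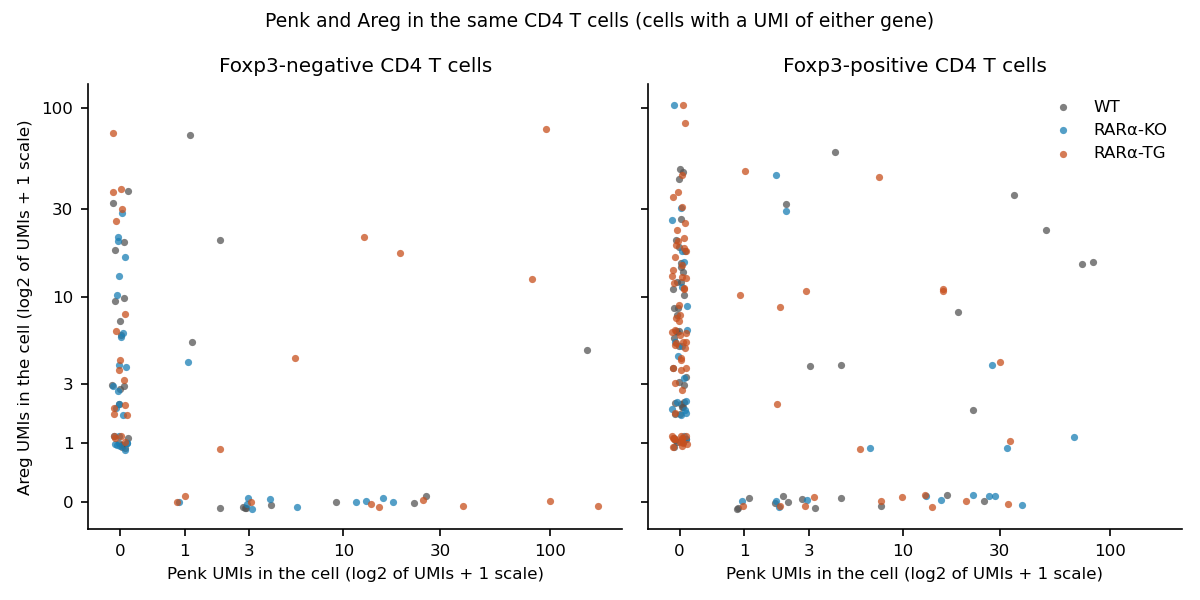
UMIs of Penk (x axis) and Areg (y axis) per cell in Foxp3-negative and Foxp3-positive CD4 T cells, both axes as log2(UMIs + 1), for cells with a UMI of either gene. Points are cells, coloured by genotype and jittered. Cells with only Penk lie along the x axis and cells with only Areg along the y axis, and cells with many UMIs of both occur in each class, such as the WT Foxp3-positive cells with 87 Penk and 17 Areg UMIs and with 36 Penk and 33 Areg UMIs.

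Pcsk1, the convertase that cuts preproenkephalin, was seen in CD4 T cells and in no CD8 T cell, macrophage or Col3a1-rich cell. In Foxp3-positive cells Pcsk1 stood at 8.34 CPM in WT (5 UMIs), 16.4 CPM in RARα-KO (8 UMIs) and 67.8 CPM in RARα-TG (50 UMIs). In Foxp3-negative cells it was seen as 2 UMIs for WT, 1 for RARα-KO and 23 for RARα-TG (48.4 CPM). Pcsk1 was thus highest in RARα-TG in both CD4 classes, with log2 ratios over WT of 3.02 (1.71 to 4.71) and 3.42 (1.40 to 6.54).

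In RARα-TG CD4 T cells Penk was found more often in the cells that had Pcsk1. Among RARα-TG Foxp3-positive cells 10 of the 21 with a Pcsk1 UMI had Penk (47.6%, 25.7 to 70.2) at 1259 CPM, against 11 of 130 without one (8.46%) at 123 CPM. Among RARα-TG Foxp3-negative cells 6 of 12 with a Pcsk1 UMI had Penk (50%, 21.1 to 78.9) at 2466 CPM, against 9 of 100 without one (9%) at 1088 CPM, and the latter held 459 of the 591 UMIs. The cells with Pcsk1 were deeper, at medians of 5180 against 3962 UMIs in the Foxp3-positive and 4925 against 3792 UMIs in the Foxp3-negative class. In WT and RARα-KO 11 CD4 cells had a Pcsk1 UMI, too few to compare, and 1 of them was the WT Foxp3-negative cell with 149 Penk UMIs.

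Klrg1, a receptor of terminally differentiated T cells that also marks tissue regulatory T cells, went with a higher share of Areg-positive cells in the Foxp3-negative class. There Areg was seen in 6 of 15 WT cells with a Klrg1 UMI (40.0%) against 15 of 82 without one (18.3%). In RARα-KO it was seen in 8 of 19 cells (42.1%) against 16 of 148 (10.8%), and in RARα-TG in 10 of 23 cells (43.5%) against 14 of 89 (15.7%). Median depths of cells with and without Klrg1 were 3954 and 3836 UMIs for WT, 4350 and 4530 for RARα-KO and 3794 and 3812 for RARα-TG. In Foxp3-positive cells the shares with and without Klrg1 were closer, at 43.7% and 38.8% for WT, 33.3% and 32.1% for RARα-KO and 45.8% and 40.9% for RARα-TG. Klrg1 itself stood at 102 CPM for WT, 45.7 CPM for RARα-KO and 265 CPM for RARα-TG Foxp3-negative cells, the same order as Areg, and its part in the Areg difference was not tested.

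**Figure D5:**
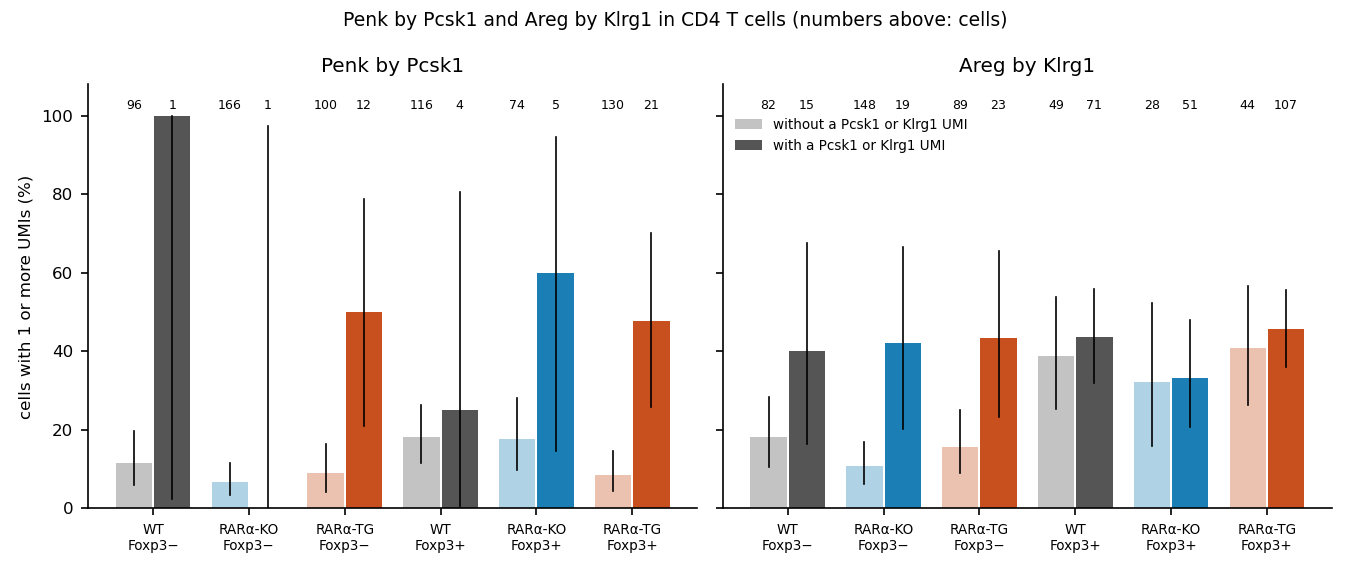
Share of CD4 T cells with Penk, split by whether the cell had a Pcsk1 UMI, and with Areg, split by a Klrg1 UMI, in percent of cells with exact binomial 95% intervals. Numbers above the bars are the cells in each group. In WT and RARα-KO each bar of cells with Pcsk1 stands for at most 5 cells. The split by Klrg1 is wider in Foxp3-negative than in Foxp3-positive cells.

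The T cell receptor data tell how many clones the positive cells came from. The 29 Penk-positive WT CD8 cells fell into 20 clonotypes, with 2 cells without one, and only 5 clonotypes had 2 or more of them. In the Foxp3-positive class the Penk-positive cells fell into 18, 15 and 20 clonotypes in WT, RARα-KO and RARα-TG. Penk was thus spread over many clones rather than held by a single one. In RARα-TG Foxp3-negative cells 1 clonotype of 5 cells had Penk in 3 of its 4 cells of this class, with 176 of the 591 UMIs, and Areg in 3 of them with 95 of the 380 UMIs.

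For Areg, single clones held larger parts of some sums. A WT clonotype of 42 cells had Areg in 8 of its 39 CD8 cells, with 38 of the 103 UMIs of WT CD8 cells, and Penk in 3. In RARα-TG a clonotype of 18 cells had Areg in 4 of 5 Foxp3-negative cells, with 140 of 380 UMIs, and in 6 of 7 Foxp3-positive cells, with 123 of 880 UMIs. A WT clonotype of 8 cells had Areg in 4 of 8 Foxp3-negative cells (63 of 260 UMIs) and a RARα-KO clonotype in 5 of 10 (26 of 152 UMIs). When each clonotype had the same weight, the Foxp3-negative Areg ratio of RARα-TG over WT was -0.66 in place of 0.44, so its direction rests on how these clones are counted.

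T cells that fell into neither gate, with no Cd4 or Cd8a UMI or with Cd4 and also Cd8a or Cd8b1 UMIs, had both genes too. Penk stood there at 283 CPM in WT (32 of 393 cells), 205 CPM in RARα-KO (14 of 295 cells) and 332 CPM in RARα-TG (38 of 411 cells). Areg stood at 585 CPM in WT (97 cells), 158 CPM in RARα-KO (33 cells) and 1182 CPM in RARα-TG (151 cells). These ungated cells held more Areg UMIs than any gated T cell class in WT and RARα-TG, and RARα-KO was lowest there as well.

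Of 18 genes of opioid peptides, their processing and their receptors, between 3 and 6 were measured in each T cell comparison, that is, reached 0.1 UMIs per cell in 1 of both genotypes. Pdyn, Pnoc, Pcsk2, Pcsk1n and Mme and the opioid receptors Oprm1, Oprd1, Oprk1 and Oprl1 had 0 UMIs in all 15 sums of class and genotype, so none of the 4 opioid receptor genes was detected at this depth. Besides Penk no gene of this list was 2-fold lower in RARα-KO T cells, and none was 2-fold higher. In RARα-TG Foxp3-positive cells Penk was the 1 of 6 measured genes 2-fold lower (4.04% of all genes) and 3 were 2-fold higher (4.48% of all genes), namely Pcsk1 and the carboxypeptidases Cpd (40.0 CPM for WT, 113 CPM in RARα-TG) and Cpe (13.3 and 28.5 CPM). The list median there was 0.90 on the log2 scale against 0.01 over all genes.

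Furin, a convertase of the general secretory pathway, stood at 56.4, 45.7 and 64.7 CPM for WT, RARα-KO and RARα-TG CD8 cells and at 224, 184 and 135 CPM in Foxp3-negative CD4 cells. Ogfr, the opioid growth factor receptor, an enkephalin-binding protein unrelated to those receptors, stood at 50.9, 61.9 and 54.8 CPM in CD8 cells and at 75, 73.7 and 67.8 CPM in Foxp3-positive cells. In none of these did RARα-KO differ 2-fold from WT. In macrophages Ctsl, a lysosomal protease that also cuts proenkephalin, stood at 786 CPM for WT, 1938 CPM for RARα-KO and 935 CPM for RARα-TG, and it was the 1 of 5 measured list genes that was 2-fold higher in RARα-KO, as were 6.92% of all genes.

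Of 18 genes of EGF receptor ligands, shedding and receptors, 4 or 5 were measured in each T cell comparison. Areg was the only ligand measured in them, with Hbegf at up to 16.8 CPM, in RARα-TG Foxp3-negative cells, and Ereg at 0 UMIs in all T cell sums. The sheddase Adam17 stood at 36.0, 37.0 and 36.5 CPM for WT, RARα-KO and RARα-TG CD8 cells and at 76.7, 36.9 and 70.5 CPM in Foxp3-positive cells, where RARα-KO was 2-fold lower (log2 ratio -1.06, -1.93 to -0.24, from 46 and 18 UMIs). Errfi1, a feedback inhibitor of the EGF receptor, was also 2-fold lower in RARα-KO CD4 T cells, at 68.4 and 18.4 CPM in WT and RARα-KO Foxp3-positive cells and at 102 and 37.7 CPM in Foxp3-negative cells. The RARα-KO Foxp3-positive cells held 488442 UMIs in all, so 18.4 CPM is a small count. In Foxp3-positive cells 2 of 4 measured genes of the list were 2-fold lower, against 4.43% of all genes. In Foxp3-negative cells 2 of 5 were, Areg among them, against 4.95% of all genes.

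Macrophages held the further EGF receptor ligands Hbegf, at 72.9, 168 and 106 CPM for WT, RARα-KO and RARα-TG, and Ereg, at 3.47, 1.09 and 32.5 CPM (2, 1 and 8 UMIs). Hbegf was thus highest in the genotype in which Areg was lowest, with a log2 ratio of 1.2 (0.70 to 1.73) for RARα-KO over WT. Egfr had few UMIs in any class, at 1.74 CPM in WT macrophages and 0.235 CPM in RARα-KO Col3a1-rich cells and 0 elsewhere. Erbb4 and Epgn had 0 UMIs in every sum.

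Of 18 genes known from tissue regulatory T cells, 15 were measured in the CD8 comparison of RARα-KO and WT, of which 3 were 2-fold lower and 2 higher. The lower ones were Ikzf2 (125 CPM for WT, 32.6 CPM in RARα-KO), Ccr8 (129 and 38.1 CPM) and Tnfrsf4 (264 and 116 CPM). The higher ones were Tnfrsf9 (405 and 1359 CPM) and Prdm1 (10.3 and 38.0 CPM). The median log2 ratio of the list was -0.24 against 0.02 over all genes, and over all genes 1.33% were 2-fold or more lower and 1.3% higher. In Foxp3-positive cells 2 of 17 were 2-fold higher in RARα-KO, where 4.73% of all genes were, Il10 (30 and 143 CPM) and Tnfrsf9 (1633 and 3442 CPM), and in RARα-TG 1 of 17 was, Il10 (108 CPM), against 4.48% of all genes.

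Among 21 activity-regulated transcription factors, Fos and Jun family and other early genes induced by receptor signalling, none of the 16 measured was 2-fold different in RARα-KO Foxp3-negative cells, where both Penk and Areg were lower and where 4.95% of all genes were 2-fold lower and 3.25% higher. In RARα-TG Foxp3-negative cells 4 of 16 were 2-fold higher, against 4.36% of all genes, Fos (36.3 CPM for WT, 196 CPM in RARα-TG), Jun (13.6 and 40.0 CPM), Atf3 (20.4 and 48.4 CPM) and Nfatc2 (34.0 and 71.5 CPM). In RARα-KO CD8 cells 4 of 17 were 2-fold higher, against 1.3% of all genes, Fos, Jun, Egr1 and Egr2, while Penk and Areg were lower there. In RARα-KO Foxp3-positive cells, where Penk stood close to WT and Areg was lower, 3 of 14 were 2-fold higher (4.73% of all genes). In RARα-TG CD8 cells 2 of 16 were higher (4.63% of all genes) and 2 lower (5.8%). None of 14 reached 2-fold in RARα-TG Foxp3-positive cells, where 4.48% of all genes were higher and 4.04% lower. Jund and Junb, the highest of the list in T cells, did not reach 2-fold in any of the 6 T cell comparisons.

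Of 10 granzymes and perforin, 9 were measured in CD8 cells. In RARα-KO 3 were 2-fold lower, Gzmc (618 and 301.7 CPM in WT and RARα-KO), Gzme and Gzmf, and 3 higher, Gzmb (2877 and 6450 CPM), Gzmg and Gzmk, against 1.33% and 1.3% of all genes. In RARα-TG CD8 cells 5 of 9 were 2-fold lower, against 5.8% of all genes, and Gzmc was higher, at 2618 CPM. In RARα-TG Foxp3-negative cells, where Penk was higher, 6 of 8 were 2-fold lower, against 5.78% of all genes, with Gzmd at 560 CPM in WT and 4.21 CPM (2 UMIs) in RARα-TG.

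The genes whose levels were most like those of Penk were found over the 15 sums of class and genotype, as the Pearson r of log2(CPM + 10) among 8510 genes. They were Cpm (0.946), Ccr8 (0.941), Traf2 (0.937), Odc1 (0.935), Slc52a3 (0.93), Arhgap31 (0.925), Tent5a (0.922) and Brap (0.920). Cpm, a membrane carboxypeptidase, stood at 88.4, 36.5 and 166 CPM for WT, RARα-KO and RARα-TG Foxp3-negative cells and at 110, 117 and 117 CPM in Foxp3-positive cells. Ccr8, a chemokine receptor of tumor regulatory T cells, stood at 129, 38.1 and 39.8 CPM in CD8 cells, at 288, 207 and 429 CPM in Foxp3-negative cells and at 389, 313 and 354 CPM in Foxp3-positive cells. Ccr8 had the same order of genotypes as Penk in the Foxp3-negative class and in CD8 cells was highest in WT, as Penk was. In Foxp3-positive cells the orders differed, with Ccr8 lowest in RARα-KO and Penk lowest in RARα-TG. Since these genes were picked for their likeness to Penk over the same sums, nothing is read from the shared orders.

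For Areg the closest genes were Retreg1 (0.943), Ebi3 (0.933), Tnfrsf13b (0.932), Rab11fip1 (0.932), Got1 (0.912), Snx13 (0.908), Ppp4r2 (0.907) and Ell2 (0.907). Retreg1, an endoplasmic reticulum receptor of autophagy, stood at 77.1, 42.2 and 101 CPM for WT, RARα-KO and RARα-TG Foxp3-negative cells and at 46.8 to 50.3 CPM in macrophages. Ebi3, a subunit of the cytokines IL-27 and IL-35, stood at 145, 219 and 100 CPM in Foxp3-positive cells, where RARα-KO was highest, in contrast to Areg. Penk and Areg correlated with each other at 0.726 over the same sums, which share 1 library, its free RNA and the contrast between T cells and other cells, so these values describe the sums and say nothing of shared control.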

How the data were processed

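Tumor cells of the 3 genotypes were measured by droplet-based single-cell RNA-seq with hashtag and T cell receptor libraries. The authors ran Cell Ranger (version 6.1.0 per the labels, 4 per the file headers) and deposited UMI counts of genes and hashtags for 730308 barcodes as raw counts, aligned to mm10 (GRCm38) with default settings and no cell filter, with a table of T cell receptor contigs.

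Cells were called from the deposited counts with an ambient-profile test (3000 expected cells, at least 500 UMIs, false discovery rate 0.01, 1000 simulations). Genotypes came from HTODemux in Seurat 5.3.0 (R 4.3.3, quantile 0.99), which left out 425 doublets between hashtags and 235 cells without a hashtag. No other doublet caller was run, so doublets within a genotype remain. Clusters came from scanpy 1.11.5 (Python 3.11.15, numpy 2.4.6, pandas 2.3.3, 2000 variable genes, 30 components, Leiden resolution 1), and T cells were clusters with over 50% of barcodes in a clonotype. UMIs were summed per class and genotype and given as CPM with exact Poisson intervals, shares with exact Clopper-Pearson intervals and log2 ratios with exact binomial intervals (scipy 1.17.1), at 95%. Steps were checked on simulated data. Figures were drawn with matplotlib 3.10.9.

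A gene was measured in a comparison at 0.1 or more UMIs per cell in 1 of both genotypes, and a ratio was given only where 1 of both sums was above 3 UMIs. The genes named were Penk and Areg, up to 4 genes per list and class by level, the 8 genes most like each by Pearson r, among genes with 300 or more UMIs, and the list members 2-fold apart, which were chosen after their values were seen. The members, the 5 lists, the markers and the splits by Pcsk1 and Klrg1 were chosen with earlier results of these data known. Alternatives are named with their effect in the closing section.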

Additional observations from a re-analysis of the deposited data

Results flagged for a closer look

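The log2 ratio of Penk in RARα-TG over WT cells had opposite directions in the T cell classes. It was 1.30 in Foxp3-negative CD4 T cells, against -2.16 in CD8 T cells and -1.05 in Foxp3-positive CD4 T cells. With 1 sample per genotype the difference between classes was not tested. The CD8 value rests on 8 RARα-TG UMIs.

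T cells that fell into neither the CD8 nor the CD4 gate, which the comparisons between genotypes do not use, held Areg at 1182 CPM in RARα-TG, above the 585 CPM of the same cells in WT. They hold cells with no Cd4 or Cd8a UMI, some of which had Cd8b1, and cells with Cd4 and also Cd8a or Cd8b1 UMIs. Their median depth, 2944 UMIs in WT and 2861 UMIs in RARα-TG, was lower than that of gated T cells.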

How the results depend on the processing

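The 12 log2 ratios over WT in T cell classes were recomputed under each alternative. In 106 cases the value stayed within its counting interval with the same direction, in 32 it moved outside and in 5 a ratio whose interval did not hold 0 turned. No paired analysis was possible because each genotype is 1 sample. Keeping only cells with 90% or more of hashtag UMIs on 1 hashtag left 17 CD8, 3 Foxp3-negative and 13 Foxp3-positive WT cells and gave, for Penk in RARα-KO and RARα-TG, -0.39 and 1.89 (turned) in CD8, -1.12 and 3.60 in Foxp3-negative and -0.85 and -1.74 in Foxp3-positive cells. For Areg it gave -1.39 in RARα-KO CD8 cells, -3.42 and -1.02 (turned) in Foxp3-negative and -1.92 and -0.95 (turned) in Foxp3-positive cells. With 75%, an alternative added after the data were seen, 739, 80 and 113 WT cells were left and all 12 ratios stayed within their intervals. With the same weight for each clonotype, Penk was -4.85 in RARα-KO CD8, -1.87 and 1.06 in Foxp3-negative and -0.34 and -0.63 in Foxp3-positive cells, and Areg was -2.65 and -5.08 in CD8 and -0.87 and -0.66 (turned) in Foxp3-negative cells. Without the Gzmd, Gzme and Gzmf cluster, Penk in CD8 cells was -3.01 and -1.01. Widening the CD8 gate to cells with a Cd8a or a Cd8b1 UMI gave RARα-TG CD8 ratios of -0.39 for Penk and 2.35 for Areg. The wider gate held 39 RARα-TG Penk UMIs in place of 8. Taking T cells by clonotype alone gave -3.13 for Areg in RARα-TG CD8 cells. Without the highest cell of each genotype, also added later, Penk was -4.87 in RARα-TG CD8 and -1.25 and 2.36 in Foxp3-negative cells, and Areg was -3.09 in RARα-TG CD8 and -1.0 in RARα-KO Foxp3-positive cells. With 2 Foxp3 UMIs, the Foxp3-positive values were 0.92 and -0.21 for Penk and -0.16 for Areg in RARα-KO. Thinned to 1000 UMIs, Penk in RARα-TG Foxp3-positive cells was -0.36, and Areg was -1.16 in RARα-TG CD8, -0.11 (turned) in RARα-TG Foxp3-negative and -0.81 in RARα-KO Foxp3-positive cells. A limit of 10% mitochondrial UMIs changed no direction. Counting genes with 10 or more UMIs in sum in place of 0.1 per cell raised the share of genes 2-fold lower in RARα-KO CD8 cells from 1.33% to 4.11% and of genes 2-fold higher from 1.3% to 3.55%. The share 2-fold higher went from 4.63% to 8.71% in RARα-TG CD8, from 3.25% to 5.46% in RARα-KO Foxp3-negative and from 4.48% to 6.76% in RARα-TG Foxp3-positive cells. The cause of these shifts was not tested.

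Both genes sat in few cells with many UMIs, so counting intervals are narrower than the spread between cells, and the spread between mice is unknown. The least firm values are those of RARα-TG CD8 cells, which rest on 8 Penk and 19 Areg UMIs.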
